A study of Mus musculus with 12 samples.

Results

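The 9 genes described here serve the red cell surface and the supply of heme, and were followed across 4 sorted cell populations of the mouse embryo: Slc4a1, Alas2, Rhag, Rhd, Kel, Hemgn, Trim10, Slc25a37 and Tspan33. They were taken by symbol from the deposited expression table, where all 9 of 9 were found among 33531 genes. The embryos were at embryonic day 11.5, on a B6129S background, and came from C57BL/6 x 129S1/SVImJ F1 mothers and fathers carrying the Tg(Ly6a-GFP) transgene, a GFP reporter of the gene for the stem cell antigen Sca-1. All 4 populations came from 3 kinds of large artery (dorsal aorta, umbilical and vitelline) in the same 122 reporter-positive embryos, dissociated with collagenase. Hematopoietic cluster cells (HC) were CD31+ CD144+ ESAM+ c-Kit+, and endothelial cells (EC) had the same 3 surface proteins but were c-Kit-. Each type was divided by the reporter, which gave 53000 reporter-positive and 413000 reporter-negative cluster cells, and 377000 and 791000 such endothelial cells. The cells of each population were pooled into 3 biological samples, so every library mixes cells of several embryos and no value belongs to a single embryo. How many cells entered each pool is not given in the sources used here.

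A red cell precursor builds a membrane held to a spectrin skeleton, makes hemoglobin from globin chains and heme, and takes up iron for that heme. Slc4a1 encodes band 3, the chloride and bicarbonate exchanger that anchors the membrane to the skeleton. Rhag and Rhd encode proteins of the Rh complex, which associates with band 3, and Kel encodes the Kell blood group protein, an endopeptidase that is linked to the XK protein. Alas2 encodes the erythroid form of the enzyme that starts heme synthesis, and Slc25a37 encodes mitoferrin 1, which carries iron into the mitochondrion. Hemgn encodes hemogen, a nuclear protein of blood precursors, Trim10 encodes a RING finger protein known from erythroid maturation, and Tspan33 encodes a tetraspanin of the group that binds the protease ADAM10. At this stage most circulating red cells are primitive cells from the yolk sac, which carry embryonic globins.

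The GATA factors, among them GATA1 of the red cell lineage, bind short DNA motifs with a GATA core, and these letters were looked for in the 250 bases before the start of each gene. RefSeq promoter sequences of build GRCm38.p6 were matched for 7 of the 9 genes, not for Slc4a1 and Slc25a37. The motifs searched were AGATAA with its variant AGATAG, and TGATAA with its variant TGATAG, on both strands. Matches were found in 6 of these 7 promoters and in 26.5% of 32851 promoters of the same length. The match nearest the start in each promoter is shown, with a second one of Kel, because these genes moved together across the populations. Each line reads 5′ to 3′ along the gene's strand and has the motif in capitals.
Alas2: ctactttgctttTTATCTttagcagaggcc
Rhag: agtcctctgctcTTATCAacactatacagc
Rhd: cccggcagcctgAGATAAgacctttggcgg
Kel, farther from the start: cctgagaaactaAGATAAaagaggaggtga
Kel, nearer the start: gtgttccctcacTGATAAgcaggctccacc
Hemgn: acctgtgcagtgTGATAAagaaagtggaat
Trim10: agctcaagagccTTATCTgagtccccacac
The Alas2 stretch lies at chrX:150547319-150547348 on the plus strand, with the motif 86 bases before the start. That of Rhag is at chr17:40811106-40811135 on the plus strand (31 bases before the start), and that of Rhd at chr4:134864481-134864510 on the plus strand (43 bases). The Kel stretches are at chr6:41704364-41704393 and chr6:41704327-41704356 on the minus strand, with motifs 56 and 19 bases before the start. The Hemgn stretch is at chr4:46404179-46404208 on the minus strand (13 bases) and the Trim10 stretch at chr17:36869399-36869428 on the plus strand (163 bases). The Tspan33 promoter held none of these letters in this window. CCNCACCC, the letters read by KLF1-type factors, were found in 1 of 7 promoters, that of Alas2, against 14.9% of all promoters, and the E-box CAGNTG in 3 of 7 against 44.8%, both read on both strands. A match describes the sequence and does not show that a factor binds there.

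Expression is given as FPKM, fragments scaled to transcript length and to the library's mapped fragments, which allows levels of genes of different length to be compared. Library sums of FPKM were 555675 to 691948, with the GFP- EC libraries at 625401 to 691948, and the number of reads behind a value is unknown. Mitochondrial genes took 8.53% to 8.76% of the FPKM in GFP- EC and 3.8% to 6.47% in the other libraries, and the part of this in the contrasts with GFP- EC was not tested. All 12 endothelial markers reached a mean of 1 FPKM in all 4 populations, with sums of 2570 to 4710. Markers of blood stem and progenitor cells, which include Ly6a itself, summed to 246 to 316 in GFP+ HC against 87.3 to 102 in GFP- HC. In EC the same markers summed to 230 to 248 with the reporter and 88.1 to 95.1 without it. Differences are given on the log2(FPKM + 1) scale with their standard error, a scale that makes changes of weak genes look smaller, and folds are ratios of mean FPKM. They were tested with limma in 1 model of all 12 libraries, and the Benjamini-Hochberg adjustment ran over the 13278 tested genes. All 9 genes passed the filter of 1 FPKM in at least 3 libraries, Rhag with only 4 such libraries, of which 3 were GFP- HC, Kel and Trim10 with 6, Rhd with 8 and Hemgn with 9.

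All 9 genes were highest in GFP- HC, and in 8 of them GFP- EC came next. In the exception, Tspan33, GFP+ HC stood second. No difference between the GFP+ populations passed the test. The lowest mean was in GFP+ HC for Slc4a1, Alas2, Rhd and Hemgn and in GFP+ EC for Rhag, Kel, Trim10, Slc25a37 and Tspan33. In GFP- HC the mean levels ran from 26.9 FPKM for Slc4a1 and 18.6 for Slc25a37 through 15.1 for Alas2, 8.74 for Rhd, 8.68 for Kel, 5.78 for Hemgn and 5.17 for Tspan33 to 3.06 for Trim10 and 2.68 for Rhag. These are low levels beside the embryonic beta-type globin Hbb-y, which stood at 4320 ± 1000 FPKM (SD, n = 3) in the same cells.

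**Figure D1:**
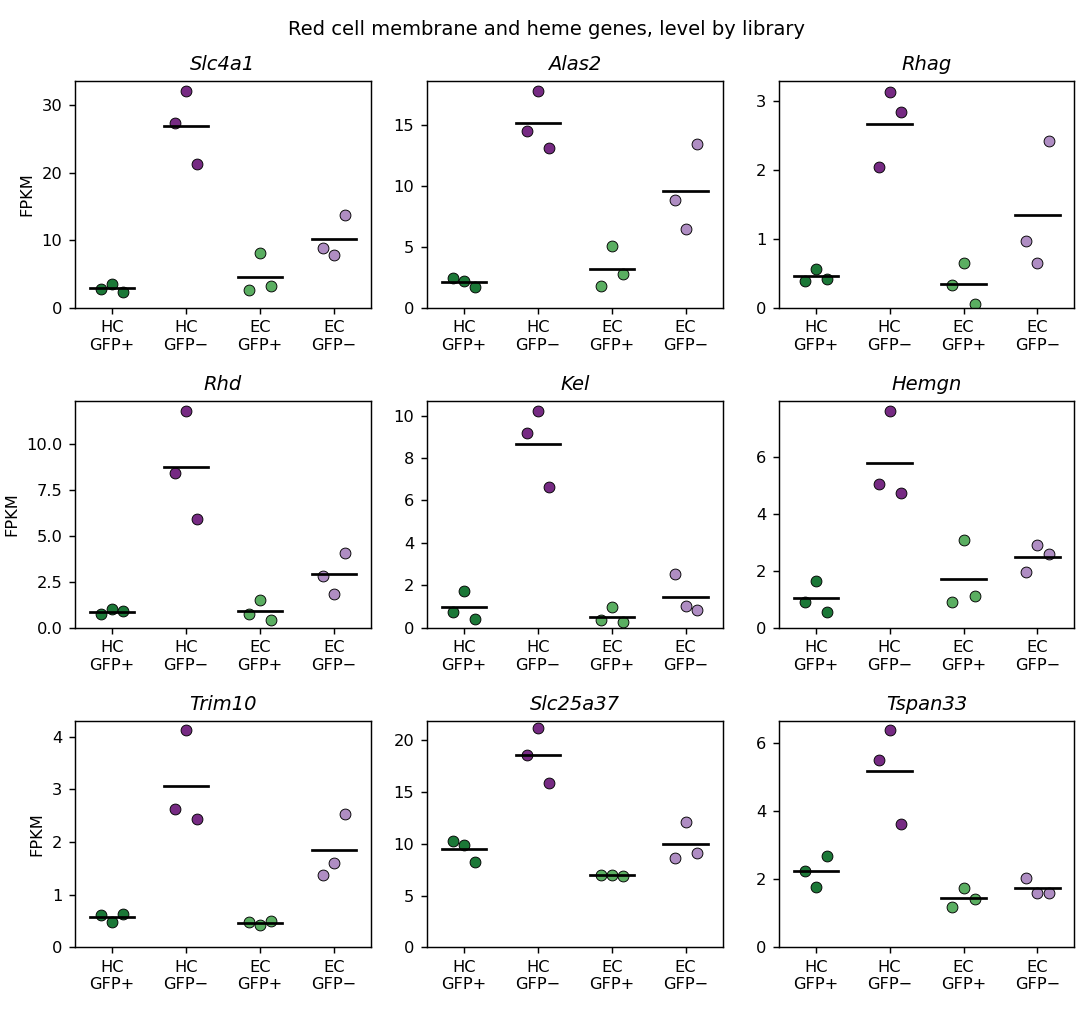
FPKM (vertical axes, linear from 0) of the 9 genes in the 3 libraries of each population, with replicates 1, 2 and 3 from left to right and a bar at the mean. In every panel the 3 GFP- HC libraries lie above the 3 GFP+ HC libraries, and Slc25a37 keeps a level of at least 6.87 FPKM in all libraries.

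The first comparison asked how the cluster cells that carry the Ly6a reporter differ from those that do not. Each of the 9 genes was lower in GFP+ than in GFP- HC, by 1.96-fold to 9.94-fold, and all 9 passed the test. Of all tested genes 1.28% were called lower in this comparison. Rhag entered the tested genes only through GFP- HC, the population where it was high, so its call adds nothing to the count, which is 8 of 8 without it. The 9 genes also had no overlap between the 3 libraries of each group, which held in the same direction for 10.5% of all tested genes. The median difference of the 9 genes was -1.75, against 0.00 over all tested genes.

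Among the membrane proteins, Slc4a1 was measured at 2.73, 3.54 and 2.41 FPKM in replicates 1 to 3 of GFP+ HC and at 27.3, 32.1 and 21.3 in GFP- HC. All GFP- libraries were far above all GFP+ libraries, and the means differed 9.29-fold (log2 -2.83 ± 0.32, adjusted p = 0.000609). Rhd, a protein of the Rh complex, stood at 0.717, 1.03 and 0.887 FPKM in GFP+ HC and at 8.46, 11.8 and 5.95 in GFP- HC. The lowest GFP- value was thus well above the highest GFP+ value, and the fold was the largest of the 9 genes at 9.94 (log2 -2.33 ± 0.28, adjusted p = 0.000948). Rhag, which the Rh complex needs to reach the surface, was weak in all libraries, at 0.392, 0.565 and 0.414 FPKM in GFP+ HC and 2.05, 3.14 and 2.84 in GFP- HC. The groups did not overlap, and the difference was 5.86-fold (log2 -1.33 ± 0.27, adjusted p = 0.0189). Kel stood at 0.718, 1.71 and 0.423 FPKM in GFP+ HC and at 9.17, 10.2 and 6.63 in GFP- HC. Its GFP+ libraries spread more than those of Rhd, with replicate 2 highest, but remained below every GFP- library (9.14-fold, log2 -2.35 ± 0.31, adjusted p = 0.00159). Tspan33 had a smaller difference, with 2.25, 1.77 and 2.69 FPKM against 5.5, 6.4 and 3.62. Its groups were separate, with 2.32-fold between the means (log2 -0.92 ± 0.19, adjusted p = 0.0215).

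The genes of heme supply were unequal in size of change. Alas2 stood at 2.43, 2.16 and 1.71 FPKM in GFP+ HC and at 14.5, 17.8 and 13.1 in GFP- HC. The groups lay far apart, at 7.22-fold (log2 -2.38 ± 0.29, adjusted p = 0.000948). Slc25a37 stood at 10.3, 9.89 and 8.25 FPKM against 18.6, 21.2 and 15.9. The GFP+ libraries kept a higher level of this carrier than of any other of the 9 genes, and its 1.96-fold difference was the smallest (log2 -0.90 ± 0.14, adjusted p = 0.00396). The nuclear protein gene Hemgn stood at 0.897, 1.64 and 0.56 FPKM against 5.03, 7.6 and 4.72, a separation of 5.61-fold (log2 -1.75 ± 0.30, adjusted p = 0.00705). Trim10 stood at 0.618, 0.483 and 0.633 FPKM against 2.62, 4.12 and 2.44. Its groups were also separate, at 5.3-fold (log2 -1.34 ± 0.20, adjusted p = 0.00292).

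Of these 9 calls 7 held whichever of the 12 libraries was left out. Rhag lost its call without replicate 1 or 3 of GFP+ HC (-1.29 and -1.31) and without replicate 2 or 3 of GFP- HC (-1.24 and -1.29). Tspan33 lost it without replicate 1 or 2 of GFP+ HC (-0.92 and -0.81) and without replicate 1 or 2 of GFP- HC (-0.87 and -0.77). A pseudocount of 0.1 also ended the call of Rhag (-2.31, adjusted p = 0.0573), and a fit of only the HC libraries that of Tspan33 (-0.92, adjusted p = 0.0832). Replicate 2 of GFP- HC was the highest of all 12 libraries for 9 of 9 genes, and replicate 3 was the lowest of its population for 8 of 9.

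Of 9 tested red cell markers, 8 were lower in GFP+ than in GFP- HC, beside 1.28% of all tested genes. The other marker, Gata1, was not called (-0.52 ± 0.31, adjusted p = 0.446). Klf1, 1 of the 8, entered the tested genes only through GFP- HC, where it was high, so its call adds nothing to the count. The summed FPKM of the 9, which include Slc4a1 and Alas2 and are mostly globin, was 5830 to 9040 in GFP- HC and 777 to 1070 in GFP+ HC, beside 3150 to 7250 in GFP- EC and 876 to 2250 in GFP+ EC. Of the 9 markers, all reached a mean of 1 FPKM in both GFP- populations, 5 did in GFP+ HC and 7 in GFP+ EC. Epb4.2, Klf1 and Gata1 were among those below that level in GFP+ HC. In bulk libraries, fewer cells of a type and less RNA per cell cannot be told apart. Mesenchyme markers summed to 215 to 459 FPKM in GFP+ HC and 354 to 1050 in GFP- HC, with 10 of 10 markers at 1 FPKM or more in both, and macrophage markers to 231 to 1430 and 237 to 774, also with 10 of 10. The part of these cells in the differences was not tested. Replicate 2 of GFP- HC, which was highest for all 9 genes, had the lowest sums of its population for mesenchyme (354) and macrophages (237) and the highest for red cells (9040).

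The second comparison put the same reporter contrast in endothelial cells, where 4 of the 9 genes were lower in GFP+ cells past the threshold, beside 6.51% of all tested genes. The median difference was -0.75 over the 9 genes and -0.03 over all tested genes. Alas2 stood at 1.77, 5.08 and 2.77 FPKM in GFP+ EC and at 8.83, 6.43 and 13.4 in GFP- EC. The groups came close but did not overlap (2.98-fold, log2 -1.35 ± 0.29, adjusted p = 0.0112). Trim10 stood at 0.487, 0.417 and 0.505 FPKM against 1.38, 1.61 and 2.54, a clear separation (3.92-fold, log2 -0.93 ± 0.20, adjusted p = 0.0111). Rhd stood at 0.747, 1.52 and 0.396 FPKM against 2.83, 1.85 and 4.09, without overlap (3.3-fold, log2 -1.06 ± 0.28, adjusted p = 0.0315). Slc4a1 stood at 2.59, 8.07 and 3.17 FPKM against 8.89, 7.85 and 13.7. Replicate 2 of GFP+ EC exceeded replicate 2 of GFP- EC, so the groups overlapped, and the call was marginal (2.2-fold, log2 -1.08 ± 0.32, adjusted p = 0.0459).

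The other 5 genes did not pass in endothelial cells. Rhag stood at 0.338, 0.644 and 0.0561 FPKM in GFP+ EC and 0.972, 0.646 and 2.43 in GFP- EC, where the second values all but met (log2 -0.75 ± 0.27, adjusted p = 0.0917). Slc25a37 was even among the GFP+ libraries, at 7.03, 6.95 and 6.87 FPKM, and stood at 8.65, 12.1 and 9.13 in GFP- EC (log2 -0.45 ± 0.14, adjusted p = 0.0553). These groups were separate although the test was missed. Kel (0.337, 0.964 and 0.242 against 2.52, 1.02 and 0.842 FPKM, adjusted p = 0.183) overlapped. So did Hemgn (0.91, 3.07 and 1.12 against 1.94, 2.88 and 2.57 FPKM, adjusted p = 0.377) and Tspan33 (1.18, 1.75 and 1.43 against 2.03, 1.61 and 1.59 FPKM, adjusted p = 0.626). In all, 5 of 9 genes were separate and lower in GFP+ EC, beside 16.7% of all tested genes. Replicate 2 of GFP+ EC was the highest of its population for 7 of 9 genes, and it also had the highest red cell marker sum of the 3 (2250 FPKM). Endothelial markers summed to 4480 to 4710 FPKM in GFP+ EC and 2930 to 3650 in GFP- EC. Of these markers 7 of 12 were called higher in GFP+ EC, beside 6.96% of all tested genes. Mesenchyme markers summed to 226 to 421 and 227 to 1000, with 10 of 10 at a mean of 1 FPKM or more in both. Of these 1 of 10 was called lower in GFP+ EC, beside 6.51% of all tested genes. The part of these cells in the endothelial contrast was not tested.

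Several endothelial calls depended on single libraries. The call of Slc4a1 was lost in 10 of 12 fits that left out a library, with differences of -0.82 without replicate 1 and -0.93 without replicate 3 of GFP+ EC, -1.15 without replicate 1 and -0.86 without replicate 3 of GFP- EC, and -1.08 without any 1 of the 6 HC libraries. Rhd lost its call without replicate 1 or 3 of GFP+ EC (-1.03 and -0.86) and without replicate 1 or 3 of GFP- EC (-1.06 and -0.85). Rhag gained one without replicate 2 of GFP- EC (-0.97), and Slc25a37 without replicate 3 of GFP+ HC (-0.45). Alas2 and Trim10 kept theirs in all 12. Slc4a1 also missed the threshold after scaling all libraries to the same FPKM sum (-0.91, adjusted p = 0.0606) and after quantile normalization (-1.06, adjusted p = 0.0555). A fit of only the EC libraries ended the calls of Slc4a1, Alas2 and Rhd (adjusted p = 0.132, 0.0655 and 0.081), and testing all genes with no filter those of Slc4a1 and Rhd (0.0962 and 0.0681).

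**Figure D2:**
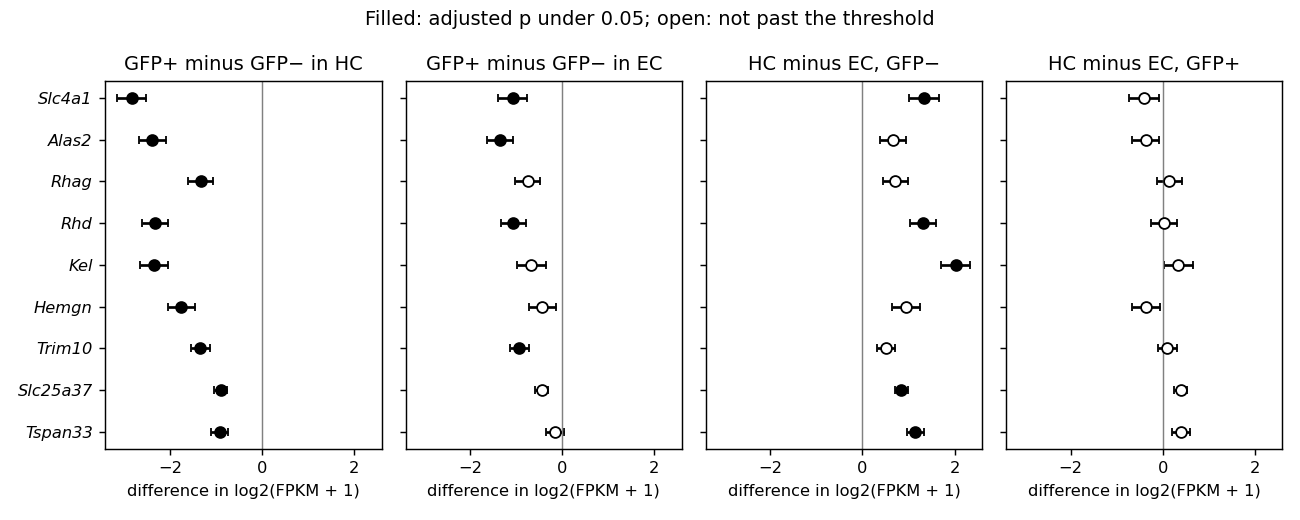
Differences in log2(FPKM + 1) (horizontal axes) with their standard errors for the 9 genes in 4 comparisons, filled where the adjusted p is under 0.05 and open otherwise. All 9 points are filled in the contrast of GFP within HC, 4 in EC, 5 between HC and EC among GFP- cells and 0 among GFP+ cells.

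The reporter contrasts of the 2 cell types were then compared directly. No gene of the 9 had a contrast that differed between HC and EC past the threshold in limma, beside 0.527% of all tested genes, while 7 of 9 had an unadjusted p under 0.05, all with the larger fall in HC, a direction and level that 5.24% of all tested genes had. The largest of these differences of contrasts were those of Slc4a1 (log2 -1.75 ± 0.45, adjusted p = 0.128) and Kel (-1.68 ± 0.44, adjusted p = 0.133). Those of Rhag (-0.57 ± 0.38) and Trim10 (-0.41 ± 0.28) were not under 0.05 before adjustment. The larger number of calls in HC is therefore not a shown difference between the cell types.

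Cluster and endothelial cells without the reporter differed in 5 of the 9 genes, all higher in GFP- HC, beside 2.36% of all tested genes called higher. All 9 were higher at an unadjusted p under 0.05, beside 10.1% of all tested genes. Rhag was tested only through GFP- HC, the higher group here, so it adds nothing to that count. Between the groups 6 genes were separate, beside 13.4% of all tested genes. The median difference was 0.95, against 0.01 over all tested genes. Kel, with the GFP- HC values given above against 2.52, 1.02 and 0.842 FPKM in GFP- EC, had the widest gap (5.95-fold, log2 2.02 ± 0.31, adjusted p = 0.00783). Rhd was 2.99-fold higher (log2 1.31 ± 0.28, adjusted p = 0.0289), Slc4a1 2.65-fold (1.34 ± 0.32, adjusted p = 0.0395), Tspan33 2.97-fold (1.15 ± 0.19, adjusted p = 0.00992) and Slc25a37 1.86-fold (0.84 ± 0.14, adjusted p = 0.00992). Alas2 and Rhag did not pass (0.66 and 0.71, adjusted p = 0.241 and 0.181), nor did Hemgn and Trim10 (0.95 and 0.51, adjusted p = 0.105 and 0.185). Of 7 tested globins limma called 0 in this comparison, with a median difference of 0.65 and 1 gene higher at an unadjusted p under 0.05. Whether the 9 genes differ from the globins in this was not tested.

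Beside these values, macrophage markers summed to 237 to 774 FPKM in GFP- HC and 11.3 to 16.9 in GFP- EC. All 10 of these markers were called higher in HC, beside 2.36% of all tested genes. Their part in the higher values of the 9 genes was not tested. The Kel call held without any 1 library. Slc4a1 lost its call without replicate 3 of GFP+ EC (1.34), replicate 1 of GFP+ HC (1.34), replicate 1 or 2 of GFP- EC (1.27 and 1.19) or replicate 1, 2 or 3 of GFP- HC (1.32, 1.21 and 1.49). Rhd lost its call without replicate 1 or 2 of GFP- EC (1.31 and 1.10) or of GFP- HC (1.30 and 1.09), and Slc25a37 and Tspan33 lost theirs without replicate 1 of GFP- HC (0.83 and 1.10). Rhag gained a call without replicate 3 of GFP- EC (1.02) and Hemgn without replicate 2 of GFP+ EC (0.95). With a pseudocount of 0.1 or with no filter, Slc4a1 (adjusted p = 0.053 and 0.0876) and Rhd (0.0668 and 0.0675) were not called, and a fit of only the GFP- libraries ended the calls of Rhd (0.0741) and Slc25a37 (0.0518).

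Among GFP+ cells, no gene of the 9 differed between HC and EC past the threshold in limma, beside 14.3% of all tested genes called in either direction, and 1, Slc25a37, had an unadjusted p under 0.05, beside 27.8% of all tested genes. Slc25a37 was at 9.47 ± 1.07 FPKM in GFP+ HC and 6.95 ± 0.0782 in GFP+ EC (SD, n = 3 each), without overlap (log2 0.39 ± 0.14, adjusted p = 0.0882). It passed without replicate 2 of GFP- EC, at the same 0.39. The other 8 differences ran from -0.41 for Slc4a1 to 0.40 for Tspan33 with standard errors of 0.19 to 0.32, so differences of about that size could not be told from 0 here.

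The populations were also set against each other across both labels. GFP- HC exceeded GFP+ EC in all 9 genes, from 2.67-fold for Slc25a37 to 16.9-fold for Kel, beside 7.95% of all tested genes called higher. All 9 calls held without any 1 library. Rhag was tested only through GFP- HC, the higher population here too, so its call adds nothing to the count. GFP+ HC were below GFP- EC in 4 genes, beside 8.85% of all tested genes called lower. These were Alas2 (4.54-fold, log2 -1.72 ± 0.29, adjusted p = 0.00216), Slc4a1 (3.5-fold, -1.49 ± 0.32, adjusted p = 0.00782), Trim10 (3.19-fold, -0.83 ± 0.20, adjusted p = 0.0135) and Rhd (3.33-fold, -1.03 ± 0.28, adjusted p = 0.0256). Rhd lost this call without replicate 1 or 3 of GFP- EC (-1.02 and -0.82) or of GFP+ HC (-0.96 and -1.03), and Hemgn gained one without replicate 2 of GFP+ EC (-0.80). Rhd also lost it with no filter (adjusted p = 0.0542) and Trim10 with only these 2 populations fitted (adjusted p = 0.0529). Slc25a37 and Tspan33 overlapped between these populations, with differences of -0.06 ± 0.14 and 0.23 ± 0.19 (adjusted p = 0.805 and 0.422).

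Because red cell globin RNA differed between the populations, each gene was also divided by the summed FPKM of Hba-a1, Hba-a2, Hba-x, Hbb-bh1 and Hbb-y, a ratio that was chosen after the values were seen and carries no test. The globin sum was 6371 to 9748 FPKM in GFP- HC and 832.7 to 1162 in GFP+ HC. Endothelial libraries had 3349 to 7790 without the reporter and 953 to 2425 with it. Of 7 tested globins, limma called 6 lower with the reporter in HC (median -2.91) and 6 in EC (median -1.67). Of all tested genes 1.28% and 6.51% were called lower in these comparisons. Hbq1b, 1 of the 6, stayed at or below 0.561 FPKM in GFP+ HC and 0.735 in GFP+ EC, with a lowest value of 0.764 in GFP- EC. It entered the tested genes only through GFP- HC, so its call in HC adds nothing to the count. Alas2 stayed within 1.71 to 2.91 per 1000 globin FPKM in all 12 libraries, a span of 1.7-fold where its FPKM spanned 10.4-fold. Slc4a1 ran from 1.75 to 4.13, a span of 2.36-fold against 13.3-fold in FPKM. Relative to globin both genes varied less than in FPKM, and the 3 Slc4a1 ratios of GFP- HC lay above the 3 of GFP- EC (1.73-fold). Per globin the reporter contrast in HC was far smaller for most genes. The GFP- HC mean was 1.22 times the GFP+ HC mean for Slc4a1, where it was 9.29 times in FPKM, and 1.28 times for Rhd, both without overlap. The groups overlapped for Kel (1.26), Alas2 (0.929), Rhag (0.778), Hemgn (0.744) and Trim10 (0.662). The direction was turned, without overlap, for Slc25a37 (0.254) and Tspan33 (0.294), which per globin were lower in GFP- HC. In EC the GFP- mean was below the GFP+ mean without overlap for Slc4a1 (0.707), Hemgn (0.518) and Tspan33 (0.366), the opposite of their direction in FPKM. The EC groups overlapped for Alas2 (0.905), Rhag (1.1), Rhd (1), Kel (1.05), Trim10 (1.01) and Slc25a37 (0.423). The globin copies Hba-a1 and Hba-a2 are nearly identical, so reads may be split between them, but their sum is not affected by such a split.

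Kel also spanned less per globin than in FPKM, 13.6-fold against 42.3-fold, but far more than Alas2. Its ratio ran from 0.108 in replicate 3 of GFP- EC to 1.47 in replicate 2 of GFP+ HC, and in GFP- HC it was 3.43 times that of GFP- EC, with no overlap. Rhd and Tspan33 had per-globin levels 1.95 and 1.76 times as high in GFP- HC as in GFP- EC, also without overlap, while Alas2 (1.06-fold) and Trim10 (1.06-fold) overlapped. With Hbb-y alone as the divisor these values were 3.7 for Kel, 2.09 for Rhd, 1.89 for Tspan33 and 1.13 for both Alas2 and Trim10. Slc25a37 spanned more per globin than in FPKM, from 1.17 to 12.3 per 1000 globin FPKM, which is 10.5-fold against 3.09-fold. Tspan33 likewise spanned 13.7-fold per globin and 5.44-fold in FPKM. These genes kept a level in the libraries that were poor in globin.

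**Figure D3:**
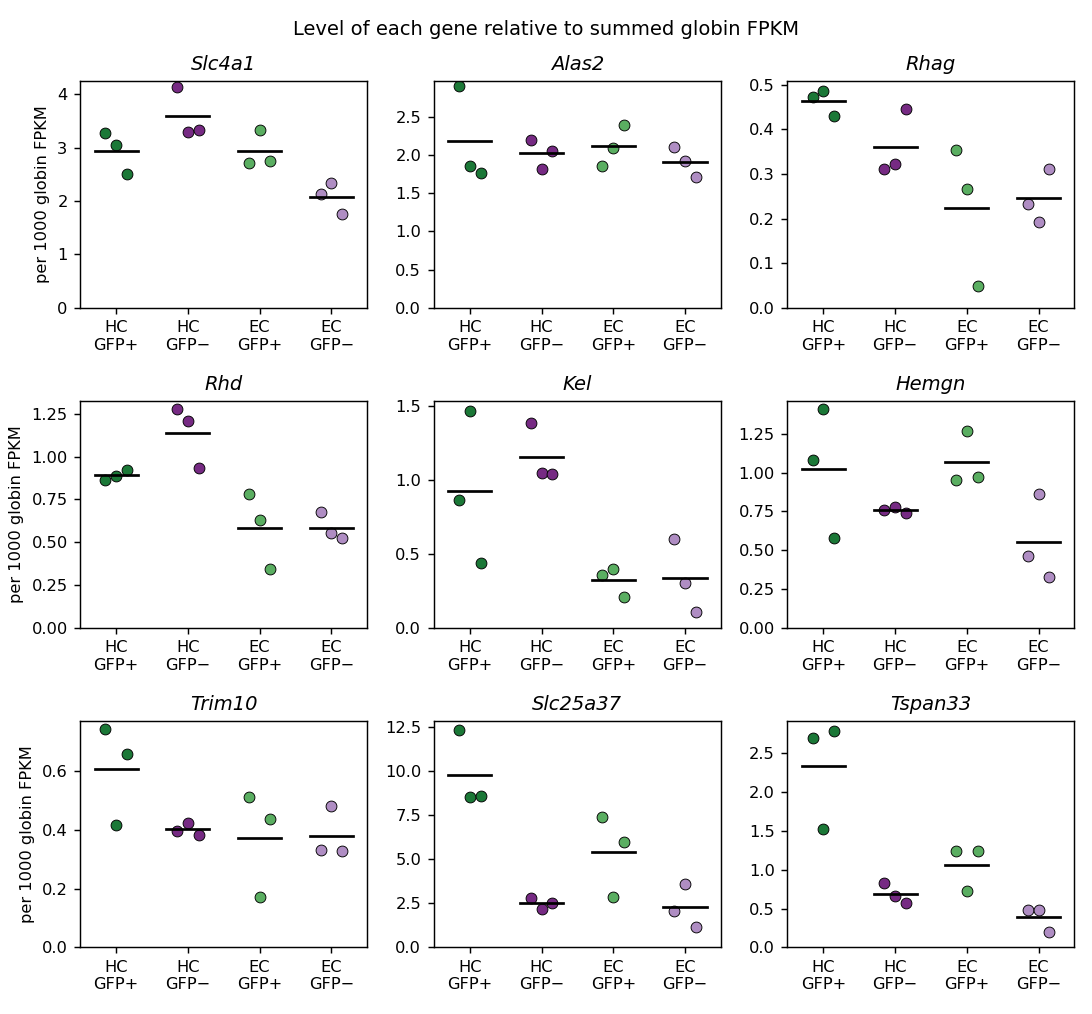
Each gene per 1000 FPKM of summed globin (vertical axes, linear from 0) in the 3 libraries of each population, replicates 1 to 3 from left to right, with a bar at the mean. Alas2 lies between 1.71 and 2.91 in all libraries, whereas Slc25a37 and Tspan33 are highest in GFP+ HC and the Kel ratios of GFP- HC exceed those of GFP- EC.

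Other genes of the red cell membrane were less uniform than the 9. Of 27 tested skeleton and membrane partners, 8 were lower and 3 higher in GFP+ than in GFP- HC and 16 were not called, with a median of -0.13, beside 1.28% of all tested genes lower and 2.98% higher. Lower were Sptb, the erythroid beta spectrin (0.544 ± 0.0468 against 3.95 ± 0.846 FPKM, 7.27-fold), Epb4.2, protein 4.2 (0.312 ± 0.265 against 3.26 ± 0.771, 10.5-fold) and Ermap, a membrane protein of the Scianna blood group (0.801 ± 0.257 against 3.8 ± 0.604, 4.75-fold). Higher were the water channel Aqp1 (25.3 ± 3.03 against 9.45 ± 2.66 FPKM, log2 1.35 ± 0.17, adjusted p = 0.001) and Bcam, the Lutheran blood group protein (42.6 ± 5.24 against 16.7 ± 1.82, 1.30 ± 0.14, adjusted p = 0.000609). Both were higher still in GFP+ EC, at 60 ± 1.32 and 93.1 ± 5.11 FPKM, and both are known from endothelium too. Xk, the partner of Kel, was low everywhere and not called between GFP+ and GFP- HC (1.74 ± 0.155 against 1.28 ± 0.165 FPKM, log2 0.26 ± 0.17, adjusted p = 0.493), where Kel fell by 2.35 on the log2 scale. The endothelial reporter contrast called 5 of the 27 partners higher and 3 lower, beside 6.96% and 6.51% of all tested genes.

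Genes of the heme pathway besides Alas2 and Slc25a37 were also compared between GFP+ and GFP- HC. Of 27 tested heme and iron genes, 1 was lower, 0 were higher and 26 were not called, with a median of -0.15. Of all tested genes 1.28% were called lower and 2.98% higher. The lower one was Cpox, coproporphyrinogen oxidase (9.34 ± 0.593 against 13.5 ± 1.19 FPKM, log2 -0.48 ± 0.10, adjusted p = 0.0208). The largest difference in the other direction was that of Hmox1, heme oxygenase 1, which breaks heme down (108 ± 36.2 against 61.5 ± 7.28 FPKM, 0.76 ± 0.22, adjusted p = 0.0808). The housekeeping relative of Alas2, Alas1, stood at 26.7 ± 1 against 21.9 ± 0.673 FPKM (0.27 ± 0.12, adjusted p = 0.282), above Alas2 in both populations. The housekeeping mitoferrin, Slc25a28, stood at 14.3 ± 2.95 against 13.4 ± 0.605 FPKM (0.07 ± 0.16, adjusted p = 0.861), above Slc25a37 in GFP+ HC and below it in GFP- HC. In endothelial cells 2 of the 27 were lower in GFP+ cells and 0 higher, a share near the 6.51% of all tested genes called lower, and the count became 0 lower when every library had the same FPKM sum. Between HC and EC 5 of 27 were higher among GFP+ cells, beside 8.21% of all tested genes, and 2 of 27 among GFP- cells, beside 2.36%.

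**Figure D4:**
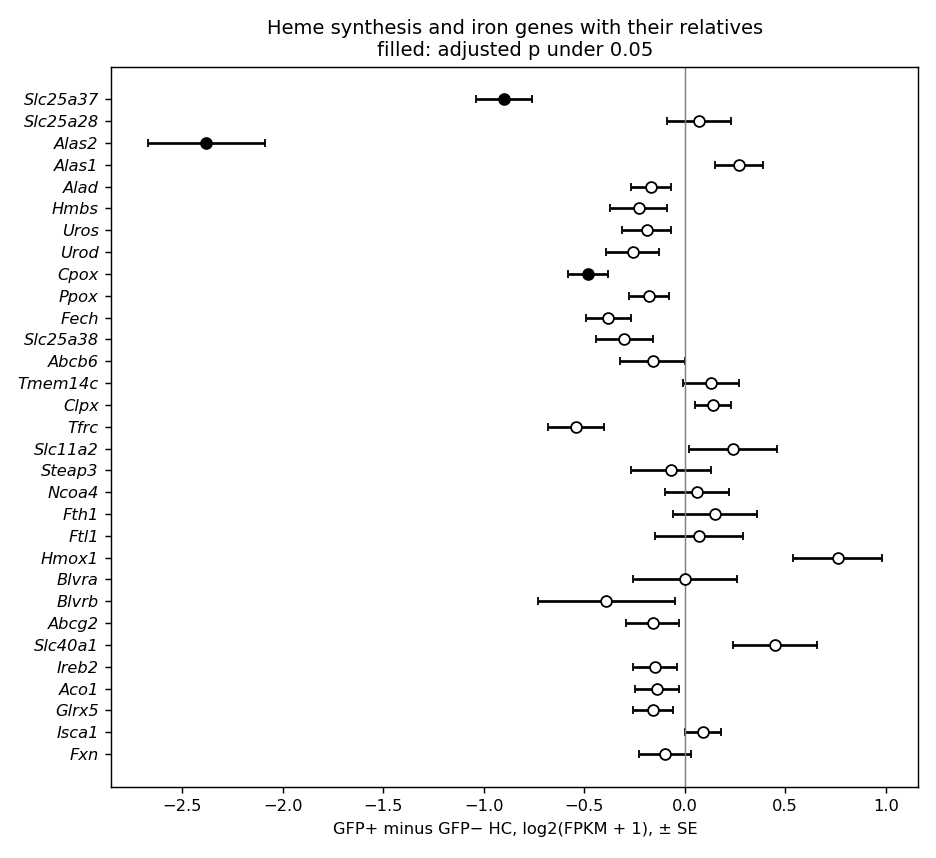
Difference between GFP+ and GFP- HC in log2(FPKM + 1) with standard errors for Slc25a37 and Alas2, their housekeeping relatives Slc25a28 and Alas1, and the 27 tested heme and iron genes, filled where the adjusted p is under 0.05. Alas2 lies far to the left of all others at -2.38, followed by Slc25a37 at -0.90 and, among the filled points, Cpox at -0.48.

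Regulators of red cell genes went in both directions. Of 19 tested, 4 were higher in GFP+ than in GFP- HC and 1 was lower, beside 2.98% and 1.28% of all tested genes. The lower one was Klf1, the erythroid factor that binds CACCC letters (0.822 ± 0.0598 against 3.06 ± 1.4 FPKM, log2 -1.10 ± 0.25, adjusted p = 0.0304). The higher ones were Ikzf1 (13.9 ± 0.162 against 5.24 ± 1.71 FPKM), Bcl11a (13.1 ± 0.737 against 7.37 ± 0.156), Nfe2 (16 ± 3.75 against 4.43 ± 0.874) and Lyl1 (59.6 ± 4.44 against 40.6 ± 3), which also act in other blood lineages and in stem cells. Their differences had adjusted p-values of 0.00278, 0.00493, 0.0144 and 0.0183 in that order.

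Relatives of the 9 genes were put to the same test. Of 19 tested relatives, 1 was lower in GFP+ than in GFP- HC and 0 were higher, with a median of 0.02. Of all tested genes 1.28% were called lower and 2.98% higher. The lower one was Tspan15 (8.85 ± 1.23 against 15.8 ± 2.48 FPKM, log2 -0.77 ± 0.14, adjusted p = 0.0104), which like Tspan33 binds ADAM10. The other tested members of that tetraspanin group, Tspan5, Tspan14 and Tspan17, were not called (0.35, 0.33 and -0.66), nor was Adam10 itself (82.6 ± 9.46 against 80.9 ± 3.78 FPKM, 0.02 ± 0.12). The anion exchangers Slc4a2 and Slc4a3 differed by -0.28 ± 0.18 and -0.14 ± 0.34, and the non-erythroid Rh relatives Rhbg and Rhcg stayed under 1 FPKM in all libraries and were not tested.

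The 9 genes varied together over the libraries. The Pearson correlation of log2(FPKM + 1) over the 12 libraries was 0.633 to 0.974 in the 36 pairs of genes, with a median of 0.873. It was highest for Slc4a1 and Rhd and lowest for Alas2 and Tspan33. These values describe 4 populations of 3 libraries each, and the points share their library, so they mix differences between populations with those between replicates. The mean of the 9 standardised profiles was most like that of Gnas (r = 0.956), a stimulatory G protein subunit, followed by Prox1 (0.95), Hba-a1 (0.932), Hba-x (0.928), Acp5 (0.926), Tbc1d16 and Kbtbd11 (0.922 each), Hoxd9 (0.921), Hbb-bh1 and Cpox (0.911 each). Prox1, a homeobox factor of lymphatic endothelium and liver, had 11.2 ± 0.384 FPKM in GFP- HC and 3.82 ± 1.05 in GFP- EC, against 2.28 ± 0.352 and 1.66 ± 0.0615 in the GFP+ cells of either type. Of these 10 genes 3 are globins, and Cpox is the heme pathway gene named above.

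**Figure D5:**
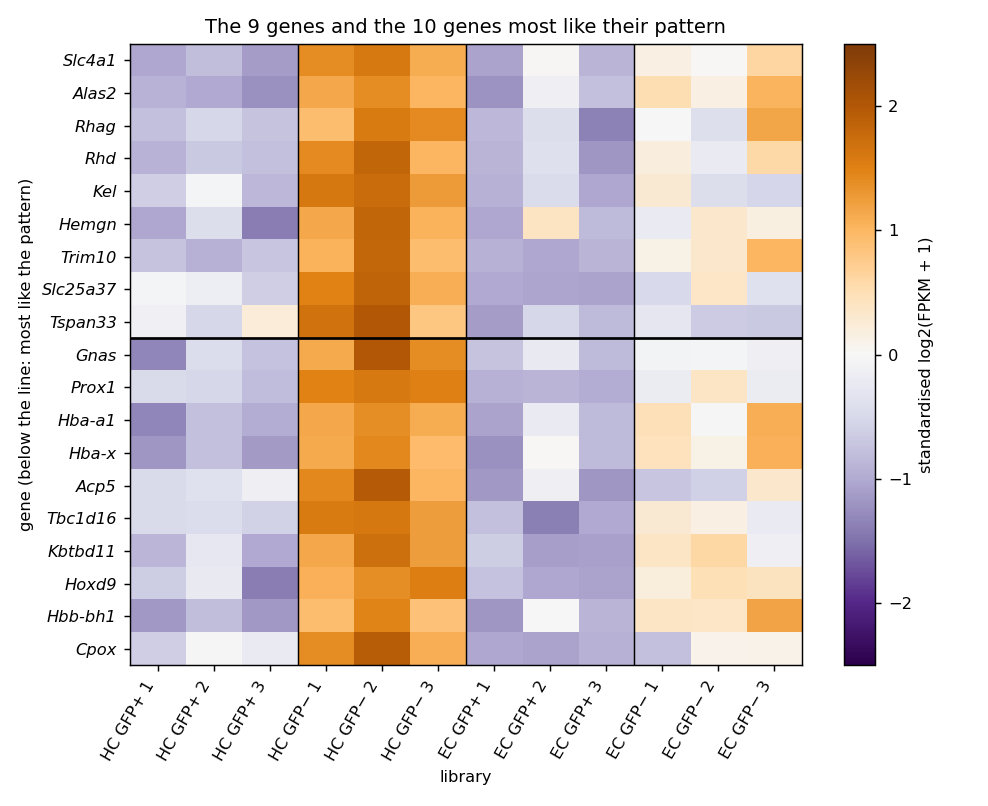
Standardised log2(FPKM + 1) (color; each gene centred and scaled over the 12 libraries) of the 9 genes, above the black line, and of the 10 genes most like their mean profile, below it. The 3 GFP- HC columns are high in every row, and the GFP- EC columns are intermediate for most genes.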

How the data were processed

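The authors deposited FPKM values per gene symbol and library, made from poly(A) RNA with an NEBNext Ultra kit, per the labels' protocols. Cufflinks, featureCounts, edgeR and DESeq and the build mm9 are named in the submitters' processing notes, with no roles or versions. Aligner, annotation, strandedness and between-library scaling are not given in the sources used. FPKM are estimates from which whole reads could not be recovered, so the read depth is not known and count models were not used. A value of exactly 0 can be an estimate that failed.

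Populations and replicate numbers come from the sample titles. The 13278 of 33531 genes that reached 1 FPKM in 3 or more of 12 libraries were tested on the log2(FPKM + 1) scale by limma 3.58.1 (R 4.3.3), with 4 group means, 8 residual degrees of freedom, an intensity trend, two-sided tests and a threshold of 0.05 for the adjusted p, in 7 comparisons. The script was tested on simulated data. The pools are independent biological samples per the labels, which do not say that replicate numbers pair libraries, so the main fit had no block. Deviations of same-numbered libraries correlated weakly, with a median of 0.0494 in 18 pairs, against -0.0274 in 36 pairs of different number. A sharing by number was thus neither shown nor excluded.

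Named genes are the 9 genes, up to 6 called genes of each further list in order of p with the best one in the other direction, close relatives, and the 10 most similar profiles. One gene that the rule takes is not reported here. Members and lists were chosen with earlier results of these data known. Of the listed symbols, Piezo1, Abcb10, Flvcr1, Zfpm1, Ahsp, Hbb-b1, Hbb-b2 and Rhced were not matched. Promoters were read from a RefSeq table of build GRCm38.p6, which is not the build of the files. Alternatives were another pseudocount, other filters, scalings and fits, a replicate block and leaving out each library.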

Additional observations from a re-analysis of the deposited data

How the results depend on the processing

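Over the 9 genes in 7 comparisons, 1191 alternative values kept their direction and side of the threshold, 59 lost a call, 11 gained one and 11 changed sign, all 11 without a call. Counts of called genes moved by more than 1.5 times as follows. For GFP- HC against GFP- EC, 5 became 3 with a pseudocount of 0.1, 3 with no filter and 3 with only the compared groups fitted. For GFP+ against GFP- EC, 4 became 2 with no filter and 1 with only the compared groups. The stricter filter left 3 of the 9 genes to test, of which 3 were called for GFP+ against GFP- HC, 3 for GFP- HC against GFP+ EC, 2 for GFP- HC against GFP- EC and 2 for GFP+ HC against GFP- EC. Leaving out 1 library gave 7 to 9 calls for GFP+ against GFP- HC, 2 to 5 for the endothelial contrast, 1 to 6 for GFP- HC against GFP- EC, 0 to 1 among GFP+ cells, 9 for GFP- HC against GFP+ EC, 3 to 5 for GFP+ HC against GFP- EC and 0 for the difference of contrasts. The counts under the stricter filter follow from fewer genes tested, and for the other settings the cause was not tested.

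With the replicate block, 9 genes were called for GFP+ against GFP- HC, 5 in EC, 0 among GFP+ cells, 6 among GFP- cells, 9 for GFP- HC against GFP+ EC, 5 for GFP+ HC against GFP- EC and 0 for the difference of contrasts. The genes that gained a call were Slc25a37 in EC (-0.45, adjusted p = 0.0367) and Hemgn for GFP- HC against GFP- EC (0.95, adjusted p = 0.0224) and GFP+ HC against GFP- EC (-0.80, adjusted p = 0.0163). Whether the numbers pair the libraries is not known. The deviations of 18 same-numbered pairs correlated at -0.0845 to 0.27, 4 of them over 0.1. Those of 36 pairs of different number correlated at -0.221 to 0.218, 3 of them over 0.1.

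The sign changes were in small differences, which over the fits without 1 library ran from -0.03 to 0.29 for Rhag and -0.16 to 0.26 for Rhd between the GFP+ populations and from -0.14 to 0.08 for Slc25a37 between GFP+ HC and GFP- EC. GFP+ HC against GFP+ EC gave, with quantile normalization, -0.09 for Rhag, -0.15 for Rhd and -0.14 for Trim10, and 0.00 for Rhd without GFP+ EC replicate 1. GFP+ HC against GFP- EC gave, for Slc25a37, 0.11 at an equal sum and 0.10 at an equal sum without globins. Scaling to an equal sum put the median of all genes at 0.137 for GFP+ EC and for GFP- HC, each against GFP- EC, and at 0.164 for GFP+ HC against GFP- EC.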

Other observations

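Among the red cell genes, Sptan1, the non-erythroid alpha spectrin, was listed at 0 in 1 library of GFP- EC, with a highest value of 95.2 FPKM in that population, and at 73.5 to 108 FPKM in the libraries of the other 3. The globin Hbb-bh0 was listed at 0 in at least 1 library each of GFP+ HC and GFP+ EC, with highest values there of 385 and 714 FPKM. Both genes were chosen after their values were seen, and Hbb-bh0 was left out of the globin sum.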
